A study of Homo sapiens with 6 samples.

Results

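The genes described here are the enzymes that build mucin-type O-glycans and the sialyltransferases that cap glycans with sialic acid. They were taken by symbol: every numbered GALNT and GALNTL symbol, every GCNT, ST3GAL, ST6GAL, ST6GALNAC and ST8SIA symbol, and C1GALT1 with C1GALT1C1. This gave 46 of the 25680 gene symbols in the files, of which 31 had enough reads to be tested. A relative that these symbols miss, WBSCR17, was listed at 0 in every library. The rule itself used symbols and no measured value, but the genes were chosen with earlier results of these data known. The libraries came from U87, an established human glioblastoma line labelled as wild type, grown in DMEM with serum. All cells, in both groups, received 500 nM of EPP6, a cyclic peptide carrying the fluorescent dye rhodamine, for 1 h. Cells were then sorted by dye fluorescence, and RNA was sequenced from the brightest 30% (high uptake) and the dimmest 30% (low uptake). The titles number the 3 libraries of a group 2, 3 and 4, and no library of untreated or unsorted cells was analysed here. The labels do not say that the libraries of a group came from separate cultures, so p-values measure the spread between these libraries, which may be technical. The comparison asks which genes differ in RNA level between cells that took up much and little peptide, the series being about proteins involved in taking up cyclic peptides.

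Mucin-type O-glycosylation starts in the Golgi, where a GALNT enzyme moves N-acetylgalactosamine (GalNAc) from UDP-GalNAc onto a serine or threonine of a passing protein. C1GALT1, which needs its chaperone C1GALT1C1 (COSMC) to fold, adds galactose to give the core 1 structure, and GCNT enzymes add a branching N-acetylglucosamine to give core 2 and related structures. Sialyltransferases end the chains: ST3GAL and ST6GAL enzymes place sialic acid on galactose, ST6GALNAC enzymes on GalNAc, and ST8SIA enzymes on another sialic acid, on proteins or on the glycolipids called gangliosides. Sialic acid carries a negative charge, and these sugars make up much of the coat on the outer face of a cell.

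Of the 31 tested genes, 2 were higher in the high uptake cells, GALNT5 and GCNT1, and 2 were lower, GCNT3 and GALNT12. The remaining 27 did not pass the test, which was edgeR's quasi-likelihood test at a Benjamini-Hochberg adjusted p under 0.05 over all 14598 tested genes. Across all tested genes 4.29% passed in either direction, 3.03% higher and 1.26% lower. The median log2 fold change (high against low uptake) was 0.09 over the 31 genes and -0.00 over all tested genes. It was positive in 20 of the 31 genes and negative in 11. The CPM ranges of the groups (a gene's counts scaled to a library total of 1000000) did not overlap in 13 of the 31, 8 higher and 5 lower in the high uptake cells. Over all tested genes 24.4% had groups that did not overlap, 13% higher and 11.4% lower. An unadjusted p under 0.05 was reached by 10 of the 31, against 18.4% of all tested genes. When the dependence of the counts on GC content was taken out of every library, 5 of these genes were called higher and 4 lower. That setting called 17% of all tested genes, 9.66% higher and 7.35% lower, so that 56.8% of its calls were higher against 70.6% as tested. Because RNA was measured in bulk, fewer cells of a kind and less RNA per cell cannot be told apart in any of these values.

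**Figure D1:**
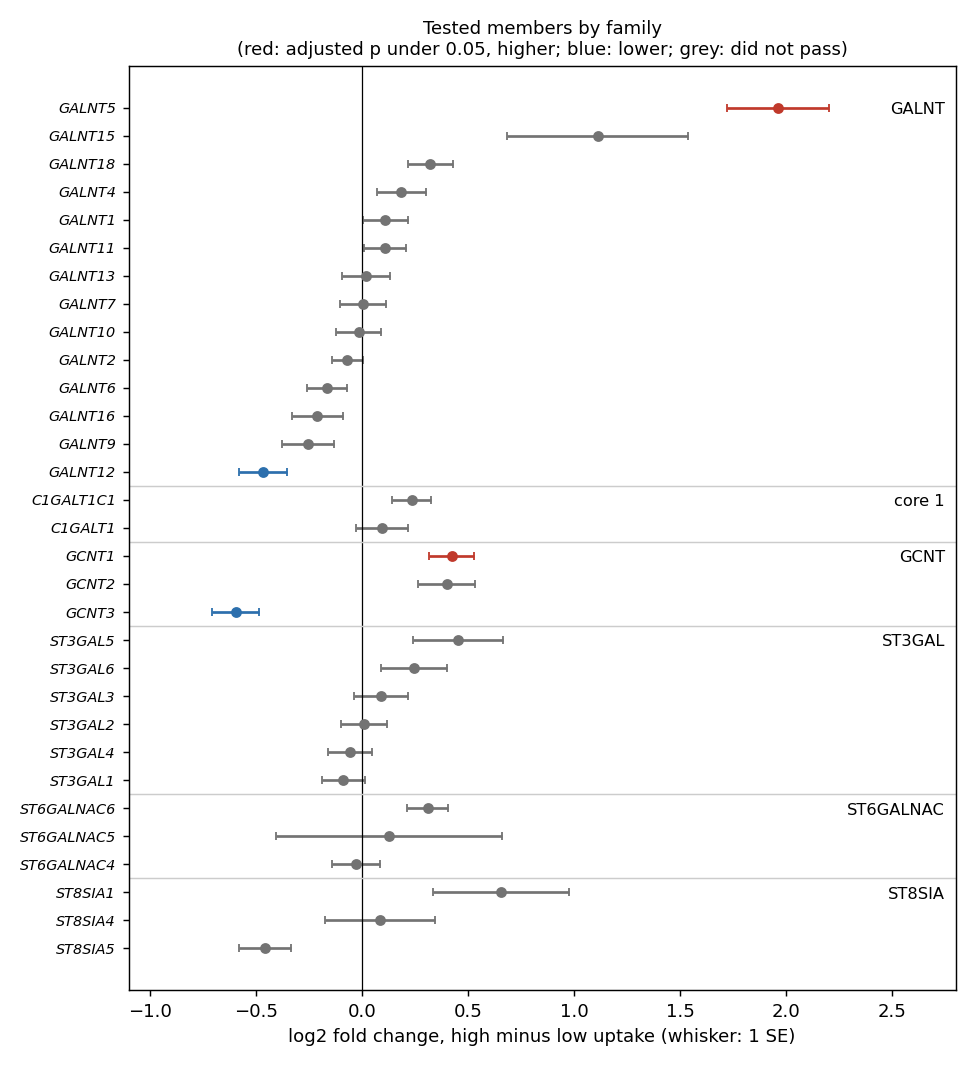
Log2 fold change of CPM, high minus low uptake, on the x axis for each of the 31 tested genes, grouped by family, with whiskers of 1 SE. GALNT5 stands farthest to the right at 1.96, GCNT1 is the other gene past the threshold to the right at 0.42, and GCNT3 and GALNT12 lie to the left at -0.60 and -0.47.

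Total counts per library ran from 13712263 to 40742857, and the shallowest library was high uptake replicate 3. Of the markers listed for the glioblastoma line, VIM, CD44 and TNC were abundant. GFAP was at a mean of 0.345 TPM (counts divided by gene length, then scaled to a total of 1000000) in high and 0.394 in low uptake libraries. Over the 6 libraries EGFR averaged 46.7 TPM, NES 9.24, OLIG2 1.16, PDGFRA 1.05, FABP7 0.393, S100B 0.0295 and SOX2 0.00716. CHI3L1 had means of 151 TPM in high and 74.2 in low uptake libraries (log2 0.99, edgeR adjusted p = 0.0890). On that list 0 of 9 tested markers passed, and 4 had an unadjusted p under 0.05. The defining immune gene PTPRC had mean TPM of 0.0674 and 0.00485, and summed immune markers were 342 to 371 TPM in high and 308 to 362 in low uptake libraries, nearly all from the lysosomal gene CD68. Summed epithelial markers, some of whose source tissues make mucin, were 2.82 to 4.10 TPM in high and 2.86 to 3.52 in low uptake libraries, and 0 of 3 tested ones passed. Endothelial markers summed to 4.16 to 4.52 and 4.01 to 4.34 TPM (0 of 4 tested passed). Oligodendrocyte markers summed to 0.227 to 0.583 and 0.369 to 0.421 TPM (0 of 1 passed), with MOG and MOBP at 0 counts in all libraries. Over these lists together 0 of 18 tested markers passed by edgeR and 0 by limma, and 1 passed by DESeq2. An unadjusted p under 0.05 was reached by 6 of the 18, against 18.4% of all tested genes. Neuronal markers summed to 41.0 to 48.5 TPM in high and 30.1 to 33.8 in low uptake libraries, with STMN2 at 0 counts throughout. Of 5 tested neuronal markers, only the synaptic membrane gene SNAP25 passed (log2 0.80, edgeR adjusted p = 0.00987). Most of the gap between the sums came from SNAP25, at means of 28.5 TPM in high and 16.2 in low uptake libraries. The other log2 fold changes were 0.24 (RBFOX3), 0.13 (SYT1), -0.04 (GAD1) and -0.47 (SYP). The part of these markers in the differences below was not tested.

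The promoters of the 3 called genes that RefSeq's table holds are shown because GCNT1 and GCNT3, which act at the same branching step, moved in opposite directions, and GALNT12 fell beside GCNT3. Each line gives the 250 bases before the start site, read 5′ to 3′ on the + strand of GRCh38.p14, with motif matches in capitals. The windows are chr9:98807420-98807669 for GALNT12, chr9:76458932-76459181 for GCNT1 and chr15:59611533-59611782 for GCNT3.
GALNT12: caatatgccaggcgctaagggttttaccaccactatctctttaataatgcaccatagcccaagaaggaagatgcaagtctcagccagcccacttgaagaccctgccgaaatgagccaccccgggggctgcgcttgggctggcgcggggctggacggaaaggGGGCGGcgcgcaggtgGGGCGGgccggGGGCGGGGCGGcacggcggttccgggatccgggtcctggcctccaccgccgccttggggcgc
GCNT1: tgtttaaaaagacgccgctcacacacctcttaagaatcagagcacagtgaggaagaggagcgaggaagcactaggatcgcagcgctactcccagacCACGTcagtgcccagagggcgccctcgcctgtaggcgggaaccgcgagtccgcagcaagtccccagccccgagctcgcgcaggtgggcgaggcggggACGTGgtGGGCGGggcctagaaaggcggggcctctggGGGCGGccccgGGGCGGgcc
GCNT3: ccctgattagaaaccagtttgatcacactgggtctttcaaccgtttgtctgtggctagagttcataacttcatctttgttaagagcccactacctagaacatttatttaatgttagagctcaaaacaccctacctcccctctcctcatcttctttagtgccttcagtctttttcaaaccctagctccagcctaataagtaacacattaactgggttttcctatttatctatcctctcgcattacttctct
GCNT1 has 4 start sites in the table, and the window with the most CpG pairs is printed. Both strands were searched for the GC box as GGGCGG, the box spelled CCAAT, the core promoter element spelled TATAAA, the hypoxia response core as ACGTG and the E-box as CACGTG, which contains that core. The others were the AP-1 site as TGANTCA, the TEAD site as GGAATG, the SMAD element as GTCTAGAC and the retinoic acid receptor's recognition site as AGGTCA. The GALNT12 window held 4 GC boxes, and the GCNT1 window held 3 GC boxes and 2 ACGTG cores, of which 1 is read on the opposite strand as CACGT. None of these letters occurred in the GCNT3 window. Of all 35116 promoter windows of this length, 42.6% held GGGCGG, 32% CCAAT, 10.7% TATAAA and 18.5% ACGTG. The other shares were 6.34% for CACGTG, 6.57% for TGANTCA, 11.9% for GGAATG, 0.182% for GTCTAGAC and 12.1% for AGGTCA.
The printed windows also differed in CpG pairs, of which GALNT12 had 21, GCNT1 had 23 and GCNT3 had 2. The other GCNT1 starts had 11, 18 and 3 CpG pairs, with 0, 1 and 0 GC boxes and 1, 0 and 0 ACGTG cores. Which start these cells use was not tested. Among the 33 of 46 genes with an entry, 28 (84.8%) had over 10 CpG pairs in the window of their CpG-richest start, against 53.1% of all 27305 genes in the table. GCNT3 was among the 5 that did not. The share was 83.3% in the 24 tested genes with an entry and 88.9% in the 9 that were not tested. These matches and counts describe the letters and give no binding.

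The GALNT family, which adds the initiating GalNAc, had 19 members, of which 14 were tested, 1 was higher, 1 was lower and 12 did not pass. Its median log2 fold change was 0.01. Per unit of gene length, GALNT2, a widely expressed initiating enzyme, was the most abundant of the family. Its TPM was 137.0, 145.9 and 140.4 in high uptake replicates 2, 3 and 4, and 138.6, 147.9 and 146.4 in low uptake replicates 2, 3 and 4. The groups overlapped, and the log2 fold change was -0.07 (SE 0.0737, edgeR adjusted p = 0.688). GALNT7 (mean of 76.2 TPM over the 6 libraries), GALNT10 (66.7), GALNT1 (62.7), GALNT9 (60.3), GALNT18 (43.1) and GALNT11 (41.3) came next. Every library had more GALNT2 than any of these, while neighbours in that order overlapped over the libraries. GALNT6 (13.7), GALNT12 (12.3), GALNT16 (9.03), GALNT5 (7.54) and GALNT13 (5.68) formed a lower range, below GALNT11 in every library, and GALNT4 (3.23) and GALNT15 (0.344) each lay below all libraries of the gene before it. Summed over the family, the level was 552.9 ± 6.83 TPM (SD, n = 3) in high and 537.3 ± 9.80 TPM (SD, n = 3) in low uptake libraries, with low uptake replicate 3 (546.4) above high uptake replicate 3 (545.6).

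GALNT5, a GalNAc transferase found in fewer tissues than GALNT2, showed the widest difference of the 31 genes. It had 16.7, 14.5 and 14.6 CPM in high uptake replicates 2, 3 and 4, from 673, 195 and 486 reads. In low uptake replicates 2, 3 and 4 it had 2.23, 5.45 and 4.55 CPM, from 86, 120 and 93 reads. Every high uptake library was above every low uptake one, and low uptake replicate 2 was the lowest of all. The means were 15.2 ± 1.23 and 4.08 ± 1.67 CPM (SD, n = 3 each), a log2 fold change of 1.96 (SE 0.241, edgeR adjusted p = 0.00168). Without low uptake replicate 2 the log2 fold change was 1.61, the smallest with 1 library left out, and without low uptake replicate 3 it was 2.24, the largest. It stayed past the threshold with each of the 6 libraries left out in turn, but not in every other setting, as the grid of adjusted p-values shows. GALNT5 made up 2.16% ± 0.172 (SD, n = 3) of the family's summed TPM in high uptake cells and 0.576% ± 0.222 (SD, n = 3) in low uptake cells, so the gene with the widest fold difference was a small part of the family's RNA in both. Under 1% of its transcript sequence, in stretches of 50 bases, is shared with another gene of the GENCODE v29 annotation.

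GALNT12, an initiating enzyme known mainly from the digestive tract, fell in high uptake cells. Its CPM was 10.1, 12.7 and 12.4 in high uptake replicates 2, 3 and 4, and 16.8, 15.7 and 15.8 in low uptake replicates 2, 3 and 4. All low uptake libraries lay above all high uptake ones, and high uptake replicate 2 was the lowest. The means were 11.7 ± 1.41 and 16.1 ± 0.583 CPM (SD, n = 3 each), a log2 fold change of -0.47 (SE 0.114, edgeR adjusted p = 0.0436). Leaving out any of 5 libraries ended the call. The adjusted p was 0.139 without high uptake replicate 2, 0.0972 without high uptake replicate 4, 0.0713 without low uptake replicate 2, 0.112 without low uptake replicate 3 and 0.134 without low uptake replicate 4, and 0.0529 with the trend in gene length removed. Of its transcript sequence 22.9% is shared with AL136084.2 on the opposite strand. Reads from that part cannot be told apart, because the sources used here do not state whether counting used the strand. The same holds for 21.2% of GALNT2, shared with AL136988.1, and 8.15% of GALNT7, shared with AC097534.1.

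The other GALNT genes of smallest p were GALNT18 and GALNT15. GALNT18 had 51.2, 51.5 and 46.1 CPM in high uptake replicates 2, 3 and 4 and 35.1, 45.5 and 38.5 CPM in low uptake replicates 2, 3 and 4. Its groups came close without overlapping, high uptake replicate 4 lying just above low uptake replicate 3, and the log2 fold change was 0.32 (SE 0.107, edgeR adjusted p = 0.124). GALNT15, the least abundant tested member of the family, had 1.09, 0.965 and 0.6002 CPM in high and 0.259, 0.727 and 0.293 CPM in low uptake replicates. Low uptake replicate 3 was above high uptake replicate 4, and the log2 fold change was 1.11 with a wide error (SE 0.426, edgeR adjusted p = 0.187). GALNT15 reached the filter level of 0.361 CPM in 3 high uptake libraries and 1 low uptake library, so it entered the test through the group where it was higher. The log2 fold changes of the remaining 9 tested members lay between -0.25 (GALNT9) and 0.19 (GALNT4), and none of them passed. GALNT4, which shares 93.2% of its transcript sequence with the readthrough gene POC1B-GALNT4, is uncertain as a count of its own. In CPM, GALNT6 and GALNT16 were lower in every high uptake library than in any low uptake one, by narrow margins. GALNT6 was at 25.30 CPM in high uptake replicate 4 against 25.33 in low uptake replicate 2. GALNT16 was at 15.5 CPM in high uptake replicate 3 against 15.6 in low uptake replicate 2. In TPM both genes overlapped between the groups. Their log2 fold changes were -0.17 and -0.21, with edgeR adjusted p of 0.379 and 0.382. GALNT3, GALNT8, GALNT14, GALNTL5 and GALNTL6 had at most 6 reads in any library and were not tested.

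**Figure D2:**
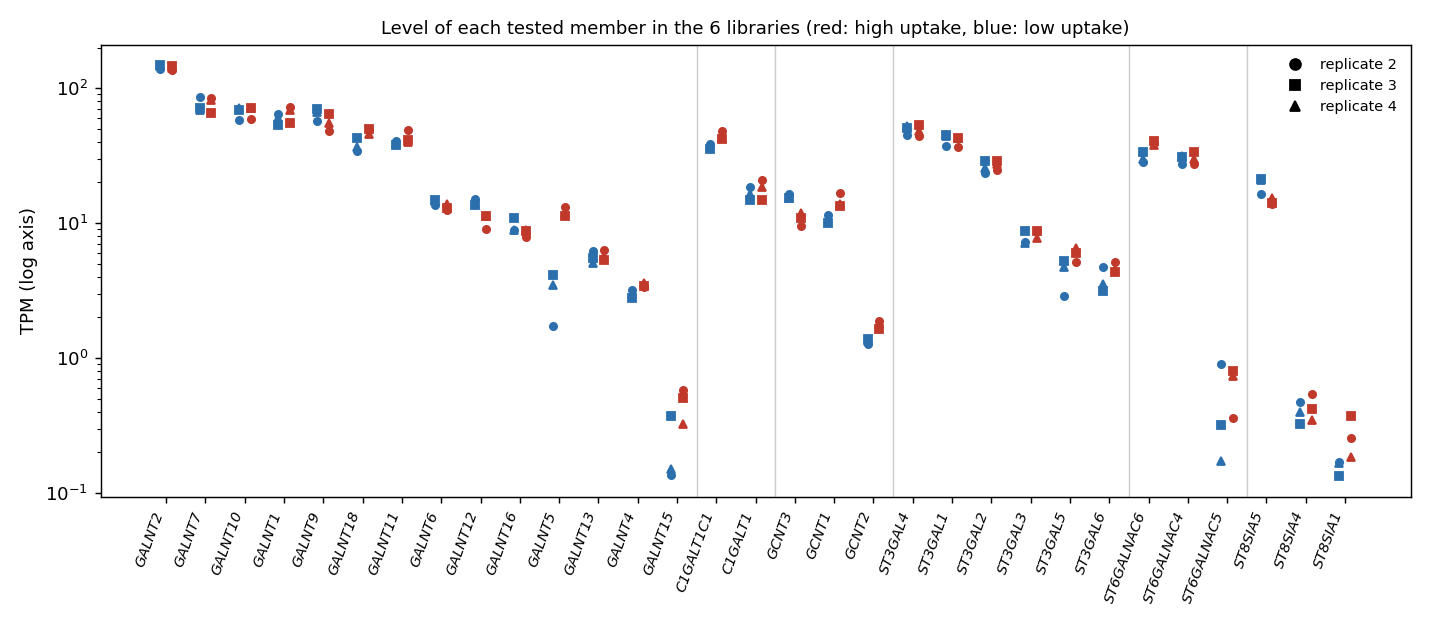
TPM of each tested gene (y axis, log scale) in the 6 libraries, ordered by mean level within each family, with red for high and blue for low uptake and 1 marker shape per replicate number. The levels run from GALNT2 at 137.0 to 147.9 TPM down to ST8SIA1 at 0.133 to 0.370 TPM, and the groups lie farthest apart for GALNT5.

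Core 1 synthesis was measured through both of its genes, and neither passed the test. By edgeR 0 of these 2 genes were called and 1 had an unadjusted p under 0.05, and DESeq2 and limma called 0. Of all tested genes, edgeR called 4.29%, and 18.4% had an unadjusted p under 0.05. C1GALT1C1, the chaperone, had 37.5, 33.2 and 32.8 CPM in high uptake replicates 2, 3 and 4 and 29.8, 28.5 and 29.8 CPM in low uptake replicates 2, 3 and 4. The groups did not overlap, and the log2 fold change was 0.23 (SE 0.0908, edgeR adjusted p = 0.192). C1GALT1, the transferase itself, overlapped between groups at 45.9 ± 7.55 and 43.2 ± 4.30 CPM (SD, n = 3 each), with a log2 fold change of 0.09 (SE 0.123, edgeR adjusted p = 0.751). Per unit of length the chaperone was the more abundant in every library, at a mean of 40.8 against 17.4 TPM. Without the GC trend the chaperone passed (log2 0.23, adjusted p = 0.0414).

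The branching enzymes held a change in each direction. Of 5 GCNT genes, 3 were tested: GCNT1 was higher, GCNT3 was lower, and GCNT2 did not pass. GCNT1, the enzyme that makes core 2 from core 1 in most tissues, had 45.8, 37.0 and 37.5 CPM in high uptake replicates 2, 3 and 4. In low uptake replicates 2, 3 and 4 it had 31.5, 28.3 and 30.2 CPM, all below the high uptake libraries, and high uptake replicate 2 stood above the rest. The means were 40.1 ± 4.94 and 29.99 ± 1.63 CPM (SD, n = 3 each), a log2 fold change of 0.42 (SE 0.104, edgeR adjusted p = 0.0450). The adjusted p was 0.148 without high uptake replicate 2, 0.0754 without high uptake replicate 4, 0.168 without low uptake replicate 3, 0.157 without low uptake replicate 4 and 0.0681 with the length trend removed.

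GCNT3, a mucin-associated enzyme that can make core 2, core 4 and I branches, moved the other way. It had 8.59, 9.95 and 10.5 CPM in high uptake replicates 2, 3 and 4 and 15.1, 14.3 and 14.3 CPM in low uptake replicates 2, 3 and 4. Each group was tight and the gap between them was wider than the range within either. The means were 9.69 ± 0.996 and 14.6 ± 0.426 CPM (SD, n = 3 each), a log2 fold change of -0.60 (SE 0.112, edgeR adjusted p = 0.0141). Without low uptake replicate 4 the log2 fold change was -0.61 and the adjusted p was 0.0563. The call held with each of the other 5 libraries left out.

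On the TPM scale the order of these branching enzymes differed between the groups. GCNT1 was at 16.8, 13.4 and 13.9 TPM against 9.50, 10.8 and 11.8 TPM of GCNT3 in high uptake replicates 2, 3 and 4. In low uptake replicates 2, 3 and 4 GCNT1 was at 11.4, 9.99 and 10.7 TPM against 16.5, 15.3 and 15.4 TPM of GCNT3. The ratio of GCNT1 to GCNT3 was therefore above 1 in each high uptake library, at 1.76, 1.23 and 1.18, and below 1 in each low uptake library, at 0.692, 0.653 and 0.696. Their sum was 25.4 ± 1.08 and 26.5 ± 1.38 TPM (SD, n = 3 each), closer between the groups than either gene. The ratio and the sum were computed after both genes were known to have passed in opposite directions, and both are given as a description. Opposite changes partly cancel in a sum. The order depends on dividing by gene length. In CPM, which is not divided by it, GCNT1 was above GCNT3 in every library, at 28.3 to 45.8 against 8.59 to 15.1 CPM. GCNT2, which makes the branch of the I blood group antigen, had 5.55, 4.97 and 5.25 CPM in high and 3.78, 4.23 and 4.06 CPM in low uptake replicates. Its groups did not overlap, and the log2 fold change was 0.40 (SE 0.135, edgeR adjusted p = 0.129). GCNT4 and GCNT7 had at most 15 reads in any library and were not tested.

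**Figure D3:**
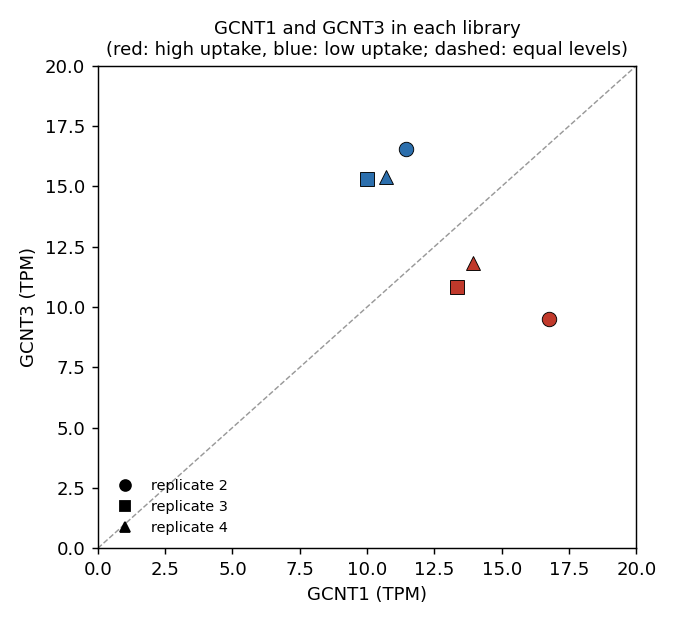
GCNT1 (x axis) against GCNT3 (y axis), both in TPM, with 1 point per library, red for high and blue for low uptake, and a dashed line where both levels are equal. The 3 high uptake libraries lie under the line and the 3 low uptake libraries above it.

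Of 12 tested sialyltransferases 0 passed by edgeR, beside 4.29% of all tested genes. An unadjusted p under 0.05 was reached by 2 of the 12, beside 18.4% of all tested genes. DESeq2 called 1 of the 12, ST8SIA5, and limma 0, beside 5.99% and 4.4% of all tested genes. The ST3GAL family, all 6 of whose members were tested, had log2 fold changes from -0.09 (ST3GAL1) to 0.45 (ST3GAL5), with a median of 0.05. ST3GAL4, which sialylates galactose on lactosamine chains, was the most abundant. Its TPM was 44.5, 53.6 and 48.2 in high uptake replicates 2, 3 and 4 and 45.1, 50.5 and 52.6 in low uptake replicates 2, 3 and 4. The groups overlapped throughout, with a log2 fold change of -0.06 (SE 0.103, edgeR adjusted p = 0.829). ST3GAL1, which caps core 1 O-glycans, averaged 41.4 TPM and ST3GAL2, with a similar acceptor, 26.5 TPM. ST3GAL4 was above ST3GAL1 in each of the 6 libraries, although their ranges over the libraries overlapped, and ST3GAL2 was below both in every library. ST3GAL3 (8.03 TPM), ST3GAL5 (5.10) and ST3GAL6 (4.24) were lower still. ST3GAL5, which makes GM3, the entry point to most gangliosides, had 5.12, 6.09 and 6.45 CPM in high and 2.90, 5.41 and 4.84 CPM in low uptake replicates 2, 3 and 4. High uptake replicate 2 lay below low uptake replicate 3, and the difference did not pass (SE 0.212, edgeR adjusted p = 0.290). Summed over the family, the level was 124.4 to 144.4 TPM in high and 120.9 to 141.7 TPM in low uptake libraries.

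ST6GAL1, which places α2,6-linked sialic acid on N-glycans, and ST6GAL2 were too low to test. ST6GAL1 had 10, 3 and 6 reads in high uptake replicates 2, 3 and 4 and 6, 1 and 1 reads in low uptake replicates 2, 3 and 4. ST6GAL2 had 0 reads in all 6 libraries, as had GALNTL5 and ST8SIA3. A count of 0 allows up to 3 counts, which is 0.0743 CPM in the deepest library and 0.223 CPM in the shallowest, as counting error alone. NEU1, the lysosomal sialidase that most cells express, was also listed at 0 in every library, and so was the surface protein gene CD99. The cause of these zeros was not tested, and a gene at 0 is given here as listed at 0.

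The ST6GALNAC family had 6 members, of which 3 were tested. ST6GALNAC6, which makes α-series gangliosides and disialyl Lewis a, had 43.9, 46.3 and 41.8 CPM in high uptake replicates 2, 3 and 4 and 32.4, 39.2 and 34.9 CPM in low uptake replicates 2, 3 and 4. Its groups did not overlap, with a log2 fold change of 0.31 (SE 0.0964, edgeR adjusted p = 0.103). Without the GC trend the log2 fold change was 0.32 and the adjusted p 0.00604. Its transcript sequence is 97.4% shared with AL157935.2 on the same strand, so its count is uncertain. ST6GALNAC4, which sialylates the GalNAc of already sialylated core 1, was next at 30.2 TPM against 34.9 TPM of ST6GALNAC6, with overlapping ranges, and a log2 fold change of -0.03 (edgeR adjusted p = 0.933). ST6GALNAC5 was at 0.547 TPM. It reached the filter level in 2 high uptake libraries and 1 low uptake library and had a log2 fold change of 0.13 with an SE of 0.533. ST6GALNAC1, ST6GALNAC2 and ST6GALNAC3 had at most 7 reads in any library.

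The ST8SIA family was carried by 1 gene. ST8SIA5, which adds sialic acid to the sialic acid of gangliosides, averaged 16.9 TPM, while ST8SIA4, a polysialic acid synthase, averaged 0.415 TPM and ST8SIA1, the GD3 synthase, 0.214 TPM. ST8SIA5 had 14.8, 15.4 and 16.0 CPM in high uptake replicates 2, 3 and 4 and 17.5, 23.5 and 22.8 CPM in low uptake replicates 2, 3 and 4. The high uptake libraries were close together and all below the low uptake ones, of which replicate 2 was the lowest. The means were 15.4 ± 0.584 and 21.3 ± 3.25 CPM (SD, n = 3 each), a log2 fold change of -0.46 (SE 0.122), and the edgeR adjusted p of 0.0603 did not pass. It passed without low uptake replicate 2 (log2 -0.59, adjusted p = 0.00659), without a filter on low counts (0.0159), by DESeq2 (0.0185) and without the GC trend (0.00788). In 10 of the 17 other settings it did not pass. With 1 library left out, the log2 fold change ran from -0.59 to -0.38 and the edgeR adjusted p from 0.00659 to 0.225. ST8SIA1 had 1.02, 1.48 and 0.720 CPM in high and 0.673, 0.545 and 0.684 CPM in low uptake replicates, with groups that came close without overlapping and a log2 fold change of 0.66 (SE 0.320, edgeR adjusted p = 0.310). ST8SIA4 had a log2 fold change of 0.09 (SE 0.259, edgeR adjusted p = 0.909). ST8SIA2 and ST8SIA6 had at most 3 reads in any library.

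**Figure D4:**
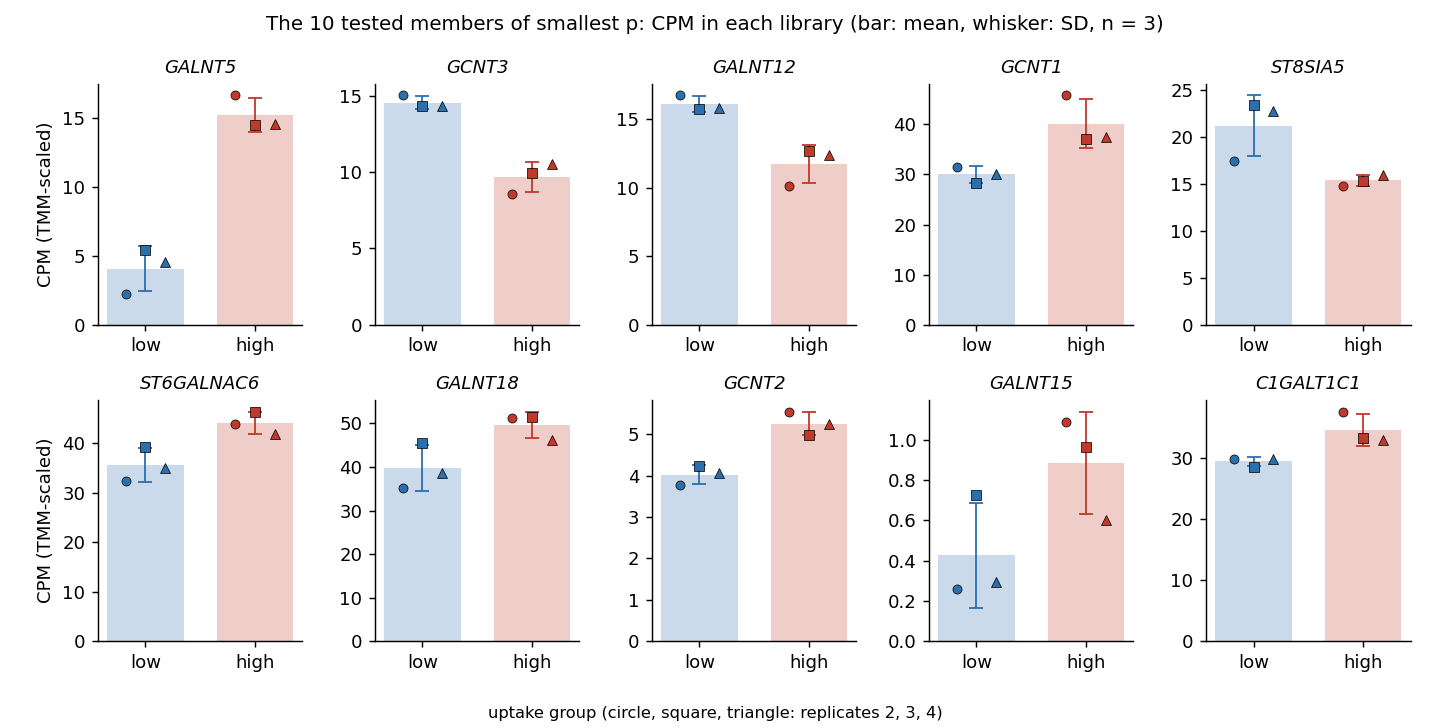
CPM (y axis, starting at 0) of the 10 tested genes of smallest p in low uptake (blue) and high uptake (red) libraries, with the mean as a bar, the SD as a whisker (n = 3) and 1 marker shape per replicate number. The groups are apart in every panel except GALNT15, and replicate 2 is the extreme high uptake library in GALNT5, GCNT3, GALNT12 and GCNT1.

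The authors' deposited list of 2305 gene symbols, which carries no values, holds 10 of the 46 genes, all of them among the 31 tested. Of the 14598 tested genes, 15.8% are on the authors' deposited list. Those on the authors' deposited list that were higher in the high uptake libraries here are GALNT5, GCNT1, GCNT2, GALNT18, ST6GALNAC6 and C1GALT1C1, and those that were lower are GCNT3, GALNT12, ST8SIA5 and GALNT9. Of these 10, 4 passed the edgeR test and 9 had groups that did not overlap, beside 4.29% and 24.4% of all tested genes. The list belongs to the same series, so its overlap with the calls here is no separate evidence. The exception was GALNT9, whose groups overlapped, with 66.4 ± 10.2 and 78.9 ± 9.90 CPM (SD, n = 3 each) and an edgeR adjusted p of 0.307. The name of the authors' deposited list gives a minimum count of 10 and a p-value of 0.05, and the test behind it was not given in the sources used here.

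Genes that act before, beside and after these enzymes were read from the same test in lists drawn up around the pathway. Of all tested genes 3.03% were called higher and 1.26% lower, and 18.4% had an unadjusted p under 0.05. For the supply of sialic acid 0 of 9 tested genes passed, and 0 had an unadjusted p under 0.05. For the supply of UDP-GalNAc 0 of 12 passed, and 1 had an unadjusted p under 0.05. DESeq2 and limma called 0 in both lists. The smallest p in each belonged to NANS, the sialic acid synthase (log2 0.14, edgeR adjusted p = 0.434), and SLC35D1, a UDP-sugar transporter (log2 0.26, edgeR adjusted p = 0.189). Of 4 sialidases only NEU3 was tested (log2 -0.09, edgeR adjusted p = 0.849), and its sign changed in 2 of 17 other settings. Among 10 tested genes of O-glycan extension, sulfation and fucosylation, 4 had an unadjusted p under 0.05 and 1 was called higher. This was B4GALT1, which adds galactose to N-acetylglucosamine and so extends the GCNT branch. B4GALT1 had 283, 258 and 256 CPM in high uptake replicates 2, 3 and 4 and 176, 190 and 191 CPM in low uptake replicates 2, 3 and 4. Its groups were far apart, with a log2 fold change of 0.52 (SE 0.0768, edgeR adjusted p = 0.00395), and it passed in all 17 other settings.

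Of 13 tested mucins and mucin-like surface proteins, which carry these glycans, 1 was higher and 1 was lower. An unadjusted p under 0.05 was reached by 7 of the 13. PDPN, podoplanin, rose from 64.0 ± 4.24 to 92.0 ± 9.51 CPM (SD, n = 3 each; log2 0.52, edgeR adjusted p = 0.0120), and the adjusted p was 0.0761 without low uptake replicate 4. PODXL2, endoglycan, was at 1.79 ± 0.344 against 3.08 ± 0.401 CPM (SD, n = 3 each; log2 -0.81, edgeR adjusted p = 0.04996), just inside the threshold. Its adjusted p was 0.162 without high uptake replicate 2, 0.107 without high uptake replicate 4, 0.147 without low uptake replicate 3 and 0.184 without low uptake replicate 4. It was 0.0512 with upper quartile scaling, 0.0518 by limma and 0.0603 without the length trend. CD44, a heavily glycosylated hyaluronan receptor, was the most abundant of that list by TPM, at means of 719 and 630, and did not pass (log2 0.16, edgeR adjusted p = 0.230).

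For N-glycans, 2 of 12 tested genes of trimming and branching were higher, and 6 had an unadjusted p under 0.05. MAN1A1, a Golgi mannosidase, had a log2 fold change of 0.41 (edgeR adjusted p = 0.0399), and FUT8, the core fucosyltransferase, 0.36 (edgeR adjusted p = 0.0466). Leaving out high uptake replicate 2 or 4, or low uptake replicate 3 or 4, gave adjusted p of 0.117, 0.0835, 0.150 and 0.157 for MAN1A1 and 0.151, 0.0704, 0.160 and 0.225 for FUT8. Without the length trend they were 0.0518 and 0.0699, and FUT8 also missed the threshold with other size factors (0.0501 and 0.0544) and a stricter filter (0.0519). Glycolipid synthesis beside the sialyltransferases had 0 of 6 tested genes past the threshold, while 3 had an unadjusted p under 0.05, DESeq2 called 1 and limma 0. The smallest p was that of B3GALNT1, the globoside synthase (log2 0.35, edgeR adjusted p = 0.0952). Of 11 tested galectins, siglecs and selectins, which read these sugars, 1 was higher and 2 had an unadjusted p under 0.05. The higher one was CD33, a siglec, at 11.03 ± 0.409 against 6.38 ± 0.880 CPM (SD, n = 3 each, log2 0.79, edgeR adjusted p = 0.00603). Of 17 tested genes that hold or sustain Golgi enzymes, 1 was higher and 3 had an unadjusted p under 0.05. The higher one was SLC9A7, a Golgi cation and proton exchanger, with a log2 fold change of 0.56 (edgeR adjusted p = 0.0112, and 0.0563 without low uptake replicate 4). The readthrough gene POC1B-GALNT4 did not pass (log2 0.10, edgeR adjusted p = 0.710). The list medians of the log2 fold change were 0.01 for sialic acid supply, 0.00 for UDP-GalNAc supply, 0.07 for O-glycan extension, 0.09 for mucins, 0.16 for N-glycan branching, -0.04 for glycolipid synthesis, -0.08 for lectins and 0.07 for Golgi genes, beside -0.00 over all tested genes.

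How far the calls on the enzymes depended on the processing is shown by the grid of adjusted p-values. GALNT5 and GCNT3 were each called in 16 of 17 other settings, GCNT1 in 12 and GALNT12 in 10, and no gene changed direction while called. DESeq2 called 2 enzymes higher and 3 lower, beside 5.99% of all tested genes (4% higher and 1.99% lower), and limma 2 and 2, beside 4.4% (3.08% and 1.32%). With the gene length trend removed 1 was higher and 1 lower, beside 3.19% (2.19% and 0.993%). Genes whose log2 fold change was near 0, such as GALNT7, GALNT10, GALNT13, ST3GAL2 and ST6GALNAC4, changed sign in 3 to 8 settings and have no stable direction here.

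**Figure D5:**
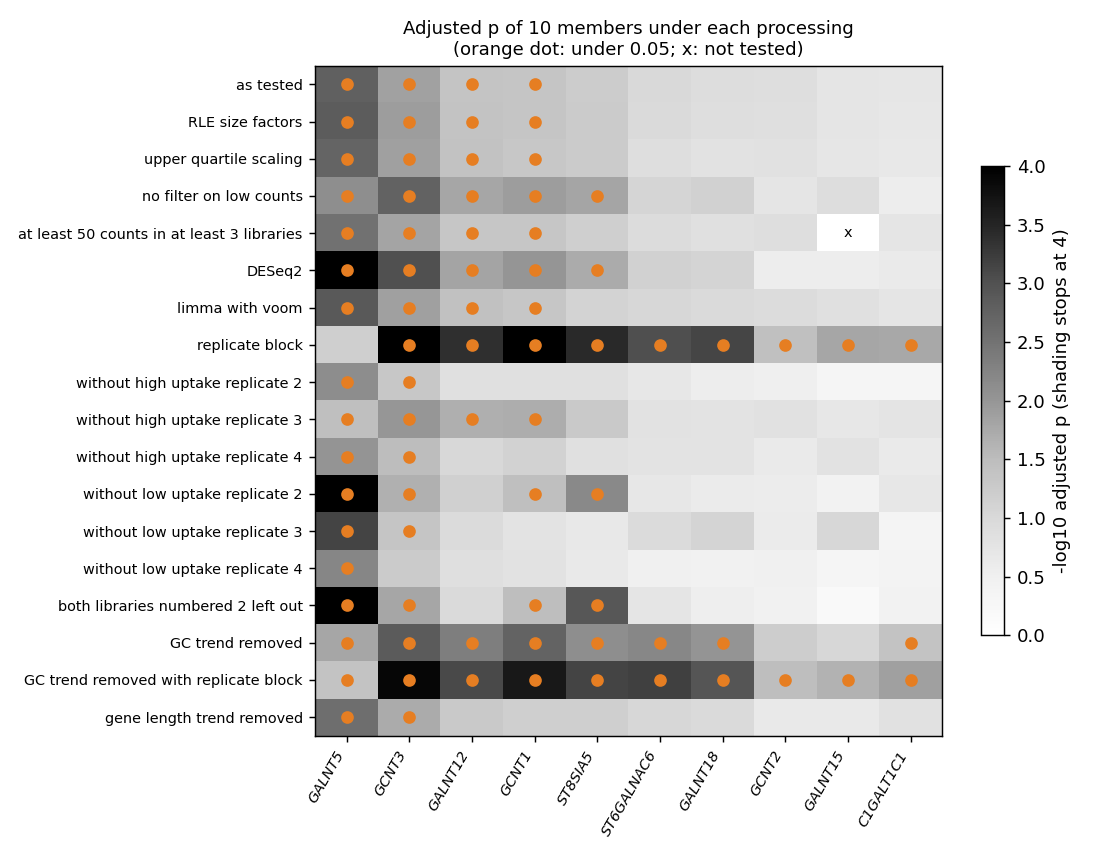
Adjusted p of the 10 tested genes of smallest p (columns) as tested and under 17 other settings (rows of the grid), shaded by -log10 of the adjusted p, with an orange dot where it is under 0.05 and an x where a gene was not tested. GALNT5 and GCNT3 carry a dot in all but 1 of the other settings, and the GC correction adds dots for 4 of the genes to the right.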

How the data were processed

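RNA-seq was analysed from 6 libraries of sorted U87 cells made with a directional kit, per the labels' protocols. Tools named in the submitters' processing notes are fastp, STAR and featureCounts, with genome build hg19. Annotation, strand setting and treatment of multi-mapped reads were not given in the sources used here. The deposited values are whole-number counts for each gene symbol. The authors' FPKM and TPM stand in further columns, as the deposited headers show, and FPKM served only to recover gene lengths. The authors' list held symbols alone. Groups and replicate numbers came from the titles.

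Counts were tested with edgeR 4.0.16 in R 4.3.3: filterByExpr (minimum count 10 and total 15, 14598 genes kept), TMM, and the two-sided quasi-likelihood F-test with robust moderation, no covariate and Benjamini-Hochberg adjustment over all tested genes. CPM values are TMM-scaled. The SE is the log2 fold change divided by the square root of F. TPM values are the authors', and were used for levels between genes. Alternatives used DESeq2 1.42.0, limma 3.58.1 with voom, other size factors, other filters, GC and length offsets (GC known for 92.8% of tested genes, from GENCODE v29), a replicate block and each library left out. Running them for genes of the other lists was chosen after seeing the data. On simulated counts (14598 genes, high against low uptake), edgeR's recovery was 12% for a 1.3-fold change, 66% for a 1.5-fold, 80% for a 2-fold and 94% for a 3-fold change, with 50 genes per size, and there were 12 false calls among 14398 genes. Promoters came from RefSeq (GRCh38.p14).

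The genes and lists were chosen with earlier results of these data known. Values in every library are given for each gene of the group past the threshold, for the 10 of smallest p and for the most abundant of each family. Of each other list, the genes past the threshold are named, or else the 1 of smallest p. GALNT9, ST3GAL5, ST8SIA1, CD44 and CHI3L1 were added after their values were seen.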

Additional observations from a re-analysis of the deposited data

How the results depend on the processing

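Of all tested genes, 442 were called higher and 184 lower. These counts were 1410 and 1073 with the GC trend removed, and 294 were lower without a filter on low counts and 290 by DESeq2. With 1 library left out they ran from 182 to 488 higher and from 50 to 250 lower. Of the 31 enzymes, 2 were called higher and 2 lower in the reported test, 5 and 4 without the GC trend, 1 and 1 with the gene length trend removed, and 1 to 2 and 0 to 2 with 1 library left out. Without both libraries numbered 2, GALNT12 was lost (log2 -0.33, adjusted p = 0.108), and ST8SIA5 passed (0.00121). No enzyme changed direction while called in any setting.

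Replicate numbers are shared by the groups, but the labels do not say that they pair the libraries. Deviations from the group means correlated at 0.452, 0.304 and 0.0873 for numbers 2, 3 and 4. Each high uptake library correlated best with the low uptake library of its own number. Low uptake replicate 4, however, correlated best with high uptake replicate 3 (0.216). These correlations do not settle whether the numbers pair the libraries. The reported test has no block because no pairing is stated in the labels. With the replicate block, 1758 genes were called higher and 1418 lower (55.4% higher), and 7 enzymes higher and 4 lower. GALNT5 was not called there (log2 2.03, adjusted p = 0.0658). With the block and the GC trend removed, the counts were 2080 and 1915 genes (52.1% higher) and 8 and 4 enzymes, GALNT5 included (0.0412).

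At this depth and with 3 libraries a group, differences under 1.5-fold are often missed, and the GCNT1, GALNT12, C1GALT1C1 and ST6GALNAC6 differences are all of that size. Genes with a few reads per library, such as ST6GAL1, allow no statement on a difference.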
